A study of Mus musculus with 4 samples.

Results

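The hypoxia-inducible factors (HIFs) and the enzymes that sense oxygen for them were read here as 9 genes of the 49997 in the count tables, chosen by name. They are the alpha subunits Hif1a, Epas1 and Hif3a, their shared partner Arnt, the prolyl hydroxylases Egln1, Egln2 and Egln3, the asparaginyl hydroxylase Hif1an, and Vhl. Per the extract protocol, poly(A) RNA came from explants of the mouse aorta-gonad-mesonephros region (AGM), the embryonic site where blood stem cells first arise. The explants were from C57BL/6J embryos at E10.5 and E11.5 (days of gestation) per the growth protocol, or at E10.5 alone per the series design. All were kept for 48 hours in MyeloCult medium with hydrocortisone on membrane filters. Untreated explants (2 libraries) were compared with explants given 5 µM CCCP for 48 hours (2 libraries). CCCP is a protonophore that lets protons leak across the inner mitochondrial membrane. The labels name no vehicle for the untreated explants, no oxygen tension, and no number of embryos per library, so p-values measure only the spread between these libraries.

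In cells with enough oxygen, prolyl hydroxylases modify the HIF alpha subunits, the VHL ubiquitin ligase binds the modified form, and the proteasome destroys it. When oxygen is scarce the alpha subunits persist, pair with Arnt and switch on genes for glycolysis, vessel growth and matrix synthesis. Control is mostly on the protein, so levels of these RNAs do not report HIF activity. Egln1, Egln3 and Hif3a are themselves well known HIF targets, and Epas1 is best known from endothelium and from the sympathetic lineage.

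The libraries held between 37360968 and 48827826 counted reads, and replicate 1 was the deeper library in both groups. The labels call the cells embryonic stem cells of the blood, and the series design names c-kit+ ones. The extract protocol instead describes RNA of explants. Kit, the receptor for stem cell factor, lay between 47.6 and 63.2 CPM (reads of the gene relative to the scaled library total). Ptprc, the pan-leukocyte antigen, stood at 6.85 and 6.82 CPM untreated and at 3.65 and 3.39 CPM with CCCP. Its groups did not overlap (log2 fold change -0.96, edgeR adjusted p-value 0.216). DESeq2 called it (adjusted p 0.0459), as it did 3.32% of the genes to which it gave an adjusted p. The Ptprc transcript is poor in G and C (39.4%), and with the trend on GC content removed the log2 fold change was -0.61. Of the 7 haematopoietic markers tested, 6 were lower with CCCP and 1 was higher. Groups did not overlap for Ptprc on the lower side (24.8% of all genes) and for Spi1 on the higher side (24.0%). Spi1 had 4.63 and 3.85 CPM untreated and 5.71 and 5.65 CPM with CCCP. The fibroblast collagen Col1a2 lay between 671 and 1494 CPM. Over 8 hepatic markers the summed level was 1736 and 978 CPM untreated, and 50.4 and 105.5 CPM with CCCP. This was the widest gap between groups among the 8 marker lists read. The part of Ptprc-positive or hepatic cells in the results that follow was not tested.

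All 9 genes passed the filter on low counts, with at least 869 reads in every library. With 0.05 as the limit for the adjusted p-value, 0 of the 9 differed between the groups in edgeR (quasi-likelihood F test, Benjamini-Hochberg over the 19837 genes tested), and over the whole table the share was 0%. The same test gave 3 of the 9 an unadjusted p under 0.05, where the share among all genes was 14.6%. These were Egln2 and Vhl on the higher side (5.45% of all genes) and Epas1 on the lower side (9.16%). DESeq2 (3.32% of its genes) and limma-voom (0 of all 19837 genes) called 0 of the 9 as well. Other fits did call some of them. Epas1 alone was called without a filter on low counts (3.43% of all genes) and with the replicate number and a GC correction in the model (3.91%). Epas1 and Egln2 were called with the replicate number in edgeR (10.7%) and in DESeq2 (9.21%), and 0 of the 9 with the replicate number and a length correction (6.26%). For 6 of the 9 the libraries of one group all lay above those of the other, against 48.8% of all genes tested. Of those 6, Egln2, Vhl and Hif1an were higher with CCCP (24.0% of all genes) and Epas1, Egln1 and Egln3 were lower (24.8% of all genes). The median log2 fold change of the 9 genes was -0.17, beside -0.008 for all genes tested. That median was 0.02 without untreated replicate 1, and -0.08, -0.05 and -0.03 without untreated replicate 2, CCCP replicate 1 and CCCP replicate 2. It was -0.04 with the trend on exon length removed and -0.02 with the trend on GC content removed, so it gives no stable direction.

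**Figure D1:**
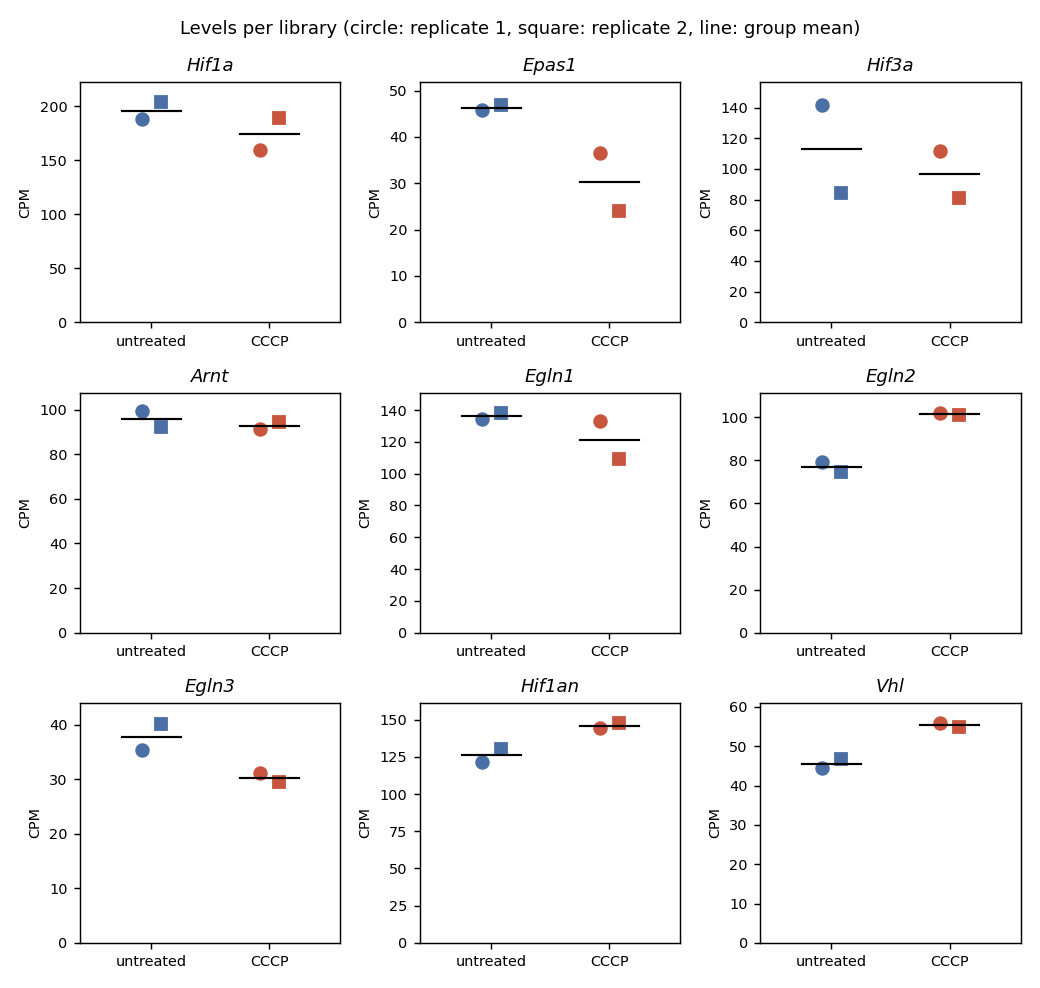
CPM of each gene by library, from 0, with untreated libraries in blue, CCCP libraries in red, replicate 1 as a circle, replicate 2 as a square and the group mean as a line. The 2 CCCP libraries of Egln2 sit at 102 and 101 CPM, above 79.2 and 74.4 CPM in the untreated libraries, while the groups of Hif1a, Hif3a and Arnt overlap.

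Levels were compared between genes as TPM, which corrects for exon length. In untreated explants Hif1a was the highest, at 114 ± 4.28 TPM, followed by Egln1 at 112 ± 7.98 TPM and Egln2 at 95.5 ± 13.0 TPM (SD, n = 2). Hif1a and Egln1 did not differ beyond their spread, and Egln2 lay at 86.3 to 105 TPM, just under Egln1 at 106 to 118 TPM. Arnt (54.9 to 67.5 TPM) and Hif1an (57.2 to 60.6 TPM) overlapped in the middle of the order. Vhl followed at 46.03 to 49.7 TPM. Hif3a spanned 31.1 to 59.5 TPM. Within each untreated library it lay below Arnt and Hif1an, though in replicate 1 only just below Hif1an (59.5 against 60.6 TPM). It lay above Vhl and Egln3 in replicate 1 and below both in replicate 2, so it could not be ordered against them. Egln3 stood at 40.8 TPM in both untreated libraries, and Epas1 was the lowest, at 23.3 to 26.0 TPM. By mean TPM over the 4 libraries the genes ranked between the 61.8th percentile of all genes tested, for Epas1, and the 91.9th, for Egln2.

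Hif1a, the ubiquitous alpha subunit, stood at 189 and 204 CPM without CCCP and at 160.0 and 189 CPM with it. CCCP replicate 2 matched untreated replicate 1, so the groups overlapped. The log2 fold change was -0.17 (standard error 0.133, edgeR adjusted p-value 0.575). Its transcript is poor in G and C (41.3%), and the 10% of genes with the lowest GC content, to which it belongs, had a median log2 fold change of -0.38. With the trend on GC content removed from each library the value for Hif1a was 0.09, so its direction depends on that step. Hif1a lies on chromosome 12 from 73901324 to 73947554 (mm10). Its span holds Gm15283 on the other strand, with which it shares 0 exon bases.

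Epas1, which encodes the alpha subunit HIF2, stood at 45.8 and 46.8 CPM untreated and at 36.6 and 24.0 CPM with CCCP. Both CCCP libraries lay below both untreated ones, and CCCP replicate 2 was well below CCCP replicate 1. The group means were 46.3 ± 0.685 and 30.3 ± 8.92 CPM (SD, n = 2). At -0.61 (standard error 0.210, edgeR adjusted p-value 0.291), its log2 fold change was the lowest of the 9 genes. The estimate was -0.33 without CCCP replicate 2 and -0.95 without CCCP replicate 1, so its size rests on which CCCP library is kept. In bulk RNA, fewer cells of a type and less RNA per cell cannot be told apart. The 10 endothelial markers summed to 589 and 744 CPM untreated, and to 603 and 582 CPM with CCCP. Of them, 7 were lower and 3 were higher, and the groups did not overlap for 3, which were Kdr, Tek and Flt1, all lower (30.0%, against 24.8% of all genes). The 7 sympathoadrenal markers summed to 71.8 and 77.3 CPM untreated and 83.8 and 88.4 CPM with CCCP, none of them at the floor of 3 counts. The part of these cells in the Epas1 values was not tested. Epas1 lies on chromosome 17 from 86753864 to 86833410.

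Hif3a, whose products include forms that inhibit the other alpha subunits, stood at 142 and 84.4 CPM untreated, and at 112 and 80.9 CPM with CCCP. Replicate 1 was the higher library in both groups, and the groups overlapped. Its log2 fold change of -0.23 (standard error 0.274, edgeR adjusted p-value 0.714) became 0.20 without untreated replicate 1. The summed mesonephric and gonadal markers, 198 and 129 CPM untreated and 183 and 125 CPM with CCCP, were also higher in replicate 1 of both groups. So were the summed mesenchymal and pericyte markers (3353 and 1918 CPM untreated, 2760 and 2233 CPM with CCCP) and, by little with CCCP, those of skeletal muscle (381 and 249.8 CPM untreated, 322 and 318 CPM with CCCP). Col1a1 and Col1a2 made up most of the mesenchymal and pericyte sum in every library, and some markers did not follow the sum of their list. With CCCP, Acta2 had 118 and 185 CPM and Twist1 139 and 141 CPM. Cdh16, a mesonephric marker, had 2.78 and 5.51 CPM untreated. The part of cells with these markers in the values of Hif3a was not tested. Hif3a lies on chromosome 7 from 17030993 to 17062427.

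Arnt, the constitutive partner of all alpha subunits, had 99.3 and 92.1 CPM untreated and 91.2 and 94.4 CPM with CCCP. The values of the groups overlapped. The log2 fold change, -0.04 (standard error 0.112, edgeR adjusted p-value 0.876), changed sign when untreated replicate 1 was left out or the length trend was removed. Relative to the summed alpha subunits, Arnt stood at 0.3336 and 0.3327 untreated and at 0.371 and 0.390 with CCCP, as a ratio of TPM. The summed alpha subunits themselves stood at 202 and 165 TPM untreated and at 141 and 129 TPM with CCCP. TPM lacks the scaling between libraries that CPM has here, and Hif1a overlapped between the groups in CPM but not in TPM (117 and 111 against 83.9 and 92.0). The GC trend, on which the direction of Hif1a depends, was not removed from these TPM values. Arnt lies on chromosome 3 from 95434367 to 95497240.

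Among the 3 alpha subunits Hif1a made up most of the RNA in every library. Its share of their summed TPM was 57.7% and 67.1% untreated, and 59.4% and 71.2% with CCCP, with replicate 2 the higher in both groups. Epas1 held 12.8% and 14.1% untreated and 12.4% and 8.24% with CCCP. The groups of Epas1 shares did not overlap, yet CCCP replicate 1 lay close to untreated replicate 1. The Hif1a to Epas1 ratio of TPM was 4.50 and 4.76 untreated, and 4.78 and 8.63 with CCCP. With 2 libraries per group no exact two-sided permutation test of such a share or ratio can go below a p of 0.3333, so none is given.

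**Figure D2:**
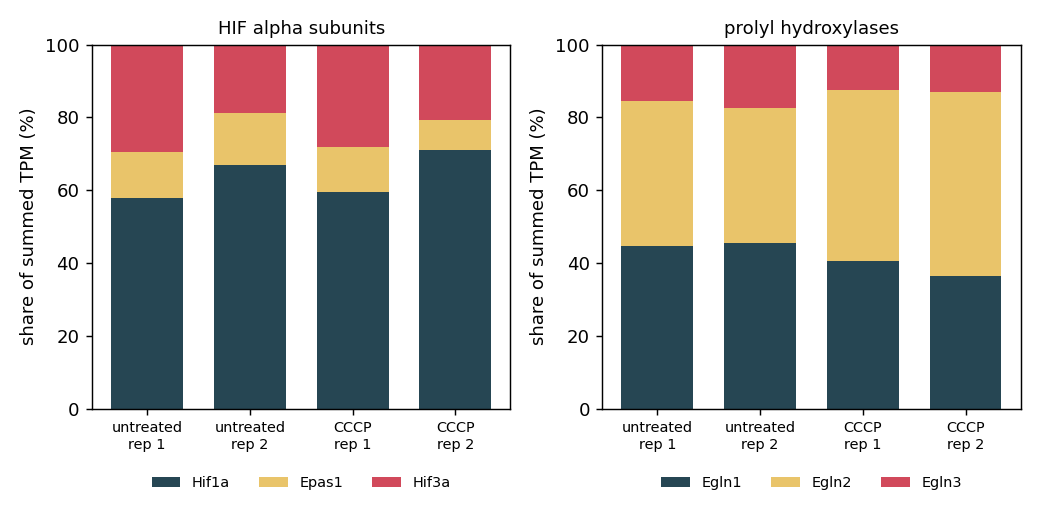
Stacked bars give each gene's share (%) of the summed TPM of the 3 alpha subunits (left) and of the 3 prolyl hydroxylases (right), 1 bar per library. The Egln2 segment covers 39.8% and 37.0% in the untreated bars and 46.9% and 50.8% in the CCCP bars.

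The prolyl hydroxylases mark the alpha subunits for VHL, and their RNAs parted in direction. Egln1, the main oxygen sensor of most cells, had 134 and 138 CPM untreated and 133 and 109 CPM with CCCP. The groups did not overlap, but CCCP replicate 1 lay just below untreated replicate 1. Its log2 fold change was -0.17 (standard error 0.136, edgeR adjusted p-value 0.575), or -0.03 without CCCP replicate 2. Egln2, the hydroxylase whose RNA hypoxia generally does not raise, had 79.2 and 74.4 CPM untreated and 102 and 101 CPM with CCCP. This was the highest fold change of the 9 genes and also the smallest unadjusted p (0.0102). The means were 76.8 ± 3.40 and 101.5 ± 0.587 CPM (SD, n = 2), and the log2 fold change was 0.40 (standard error 0.110, edgeR adjusted p-value 0.240). Egln3, a hydroxylase strongly induced by hypoxia in many cells, had 35.4 and 40.2 CPM untreated and 31.1 and 29.5 CPM with CCCP. Both CCCP libraries were lower, with a log2 fold change of -0.32 (standard error 0.134, edgeR adjusted p-value 0.347), or -0.19 without untreated replicate 2.

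The makeup of the prolyl hydroxylase RNA differed between the groups accordingly. Egln1 gave 44.7% and 45.6% of the summed TPM untreated and 40.6% and 36.3% with CCCP. Egln2 gave 39.8% and 37.0% untreated and 46.9% and 50.8% with CCCP. Egln3 gave 15.5% and 17.5% untreated and 12.5% and 12.9% with CCCP. None of the 3 shares overlapped between groups, and by TPM Egln2 replaced Egln1 as the most abundant of the 3 in both CCCP libraries. Without the correction for exon length Egln1 stayed above Egln2, at 133 and 109 against 102 and 101 CPM with CCCP. The Egln1 to Egln2 ratio of TPM was 1.12 and 1.23 untreated and 0.8655 and 0.716 with CCCP. Shares within a set are not independent of each other, and they too carry no test. Fold changes went with GC content and exon length across all genes (Spearman's rho of 0.37 and -0.35, a description across genes, which are not replicates). Genes in the same 10% bin of GC content as Egln1 and Egln2 had median log2 fold changes of 0.17 and 0.18. Genes in the same 10% bin of exon length had medians of -0.006 and 0.10. With the length trend removed the values were -0.19 for Egln1 and 0.30 for Egln2. With the GC trend removed they were -0.32 and 0.22. Neither correction changed the direction of either gene.

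The regions around the starts of the 3 hydroxylase genes are shown because Egln1 and Egln3 are textbook HIF targets and their RNAs differed in direction from that of Egln2. The sequences are from RefSeq on GRCm38.p6, the assembly of mm10. Each holds 250 bases before the start and 10 after it, on the strand of the gene, which is the minus strand for all 3. Capitals mark the HIF core motif, searched as ACGTG and GCGTG on both strands. Egln1 is at chr8:124949245-124949504, Egln2 at chr7:27166793-27167052 and Egln3 at chr12:54203865-54204124.
Egln1: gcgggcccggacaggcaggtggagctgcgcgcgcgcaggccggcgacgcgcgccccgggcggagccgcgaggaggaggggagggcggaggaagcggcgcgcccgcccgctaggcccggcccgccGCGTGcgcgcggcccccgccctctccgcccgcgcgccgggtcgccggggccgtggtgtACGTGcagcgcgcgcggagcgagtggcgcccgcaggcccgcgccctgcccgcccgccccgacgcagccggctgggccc
Egln2: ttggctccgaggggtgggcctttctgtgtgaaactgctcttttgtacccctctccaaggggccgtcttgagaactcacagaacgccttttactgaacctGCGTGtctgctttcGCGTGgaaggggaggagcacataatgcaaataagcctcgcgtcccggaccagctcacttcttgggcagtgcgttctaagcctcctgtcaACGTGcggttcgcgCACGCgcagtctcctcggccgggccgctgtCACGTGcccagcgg
Egln3: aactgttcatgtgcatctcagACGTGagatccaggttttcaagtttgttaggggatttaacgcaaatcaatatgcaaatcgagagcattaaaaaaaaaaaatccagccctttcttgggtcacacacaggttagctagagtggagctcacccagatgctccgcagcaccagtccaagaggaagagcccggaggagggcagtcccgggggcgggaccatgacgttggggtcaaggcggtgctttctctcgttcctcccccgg
The Egln1 region had 2 matches, the Egln3 region 1 and the Egln2 region shown, at the upstream of its 2 starts, 6. The window at the other Egln2 start had 1. Of the 6, 2 were the opposite strands of a single CACGTG, which is also the E-box bound by other factors of the same family. Windows of 300 bases were found for 8 of the 9 genes, both Egln2 starts included, and 7 of these 9 windows held a match. Among the 18036 windows of genes tested, 56.8% held a match, and 43.8% did among all 32851 windows. The 300-base windows at the starts shown were 86.0%, 64.3% and 54.7% G and C for Egln1, Egln2 and Egln3. Numbers of matches per window were not compared with those of other genes, and their relation to the RNA values was not tested. A match is a description of the letters and not a site of binding.

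Hif1an, which encodes the asparaginyl hydroxylase FIH that blocks coactivator binding to the alpha subunits, had 121 and 130.5 CPM untreated and 144 and 148 CPM with CCCP. Both CCCP libraries were the higher, with a log2 fold change of 0.21 (standard error 0.112, edgeR adjusted p-value 0.424). Relative to Egln1 its TPM was 0.515 and 0.537 untreated and 0.6165 and 0.772 with CCCP. Hif1an lies on chromosome 19 from 44562854 to 44576274. Vhl, the substrate receptor of the ubiquitin ligase, had 44.4 and 46.8 CPM untreated and 55.9 and 54.9 CPM with CCCP. Its libraries were close within each group, at 45.6 ± 1.75 and 55.4 ± 0.691 CPM (SD, n = 2). The log2 fold change was 0.28 (standard error 0.113, edgeR adjusted p-value 0.335). The ratio of Vhl to the summed alpha subunits was 0.246 and 0.279 in TPM untreated and 0.3755 and 0.374 with CCCP. As for Arnt, the GC trend was not removed from this ratio. Vhl lies on chromosome 6 from 113623994 to 113631634.

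**Figure D3:**
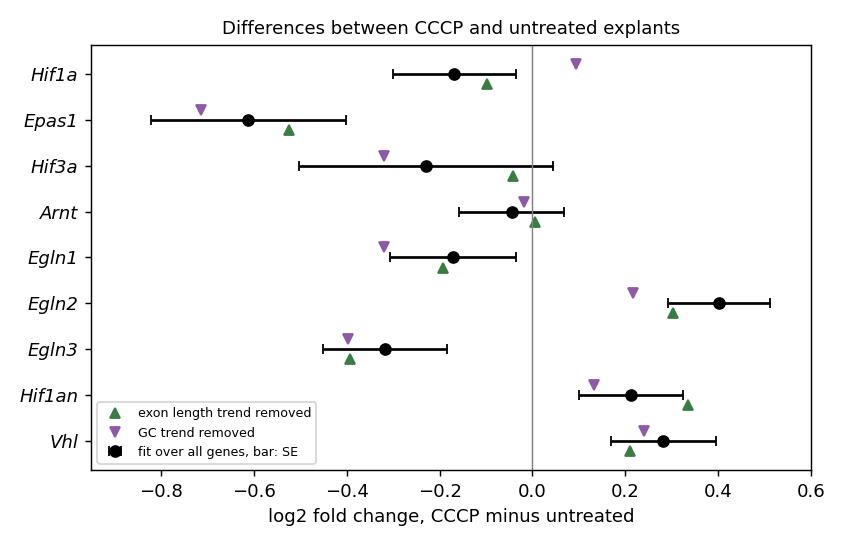
Log2 fold change of CCCP minus untreated for each gene, with black points and bars for the estimate and its standard error over 2 and 2 libraries. Triangles give the estimate with the exon length trend (green, upward) or the GC trend (purple, downward) removed, and only Hif1a and Arnt have a triangle on the other side of 0.

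Leaving out each library in turn showed which of these differences rest on a single library. The values of Egln2 ran from 0.39 to 0.46, those of Vhl from 0.25 to 0.35 and those of Hif1an from 0.17 to 0.30. For Hif1a they ran from -0.285 to -0.05 and for Arnt from -0.07 to 0.02. Those of Egln3 ran from -0.40 to -0.19 and those of Epas1 from -0.95 to -0.33. For Hif3a the range was -0.52 to 0.20, and for Egln1 it was -0.32 to -0.03.

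**Figure D4:**
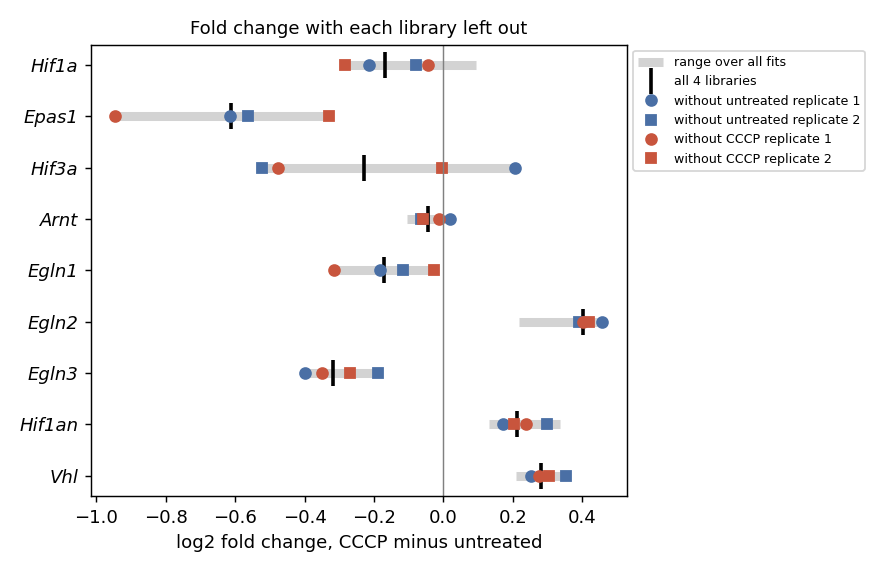
Log2 fold change of each gene with all 4 libraries (black tick) and with each library left out (blue for untreated, red for CCCP, circle for replicate 1, square for replicate 2), over a grey bar for the range of all fits. The marks for Egln2 lie together between 0.39 and 0.46, while those for Epas1 spread from -0.95 to -0.33.

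Egln2 had the smallest p of the 9 genes, so the genes with the most similar pattern were sought for it. Over the 4 libraries and 10505 other genes with a mean of at least 10 CPM, the smallest Euclidean distances of centred log2 CPM were 0.024 for Fam117a and 0.030 each for Gga1 and S1pr2. Fam117a had 22.0 and 20.8 CPM untreated and 27.9 and 28.1 CPM with CCCP. Gga1 had 66.1 and 62.7 CPM untreated and 83.8 and 85.3 CPM with CCCP. S1pr2 had 49.5 and 47.0 CPM untreated and 65.5 and 64.3 CPM with CCCP. The measure rests on 4 values per gene.

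Around the 9 genes, 20 partners and regulators of HIF were read, all of which were tested. By edgeR 0 of the 20 passed the adjustment, 4 had an unadjusted p under 0.05, and DESeq2 called 0. Of all genes 14.6% had such a p, so 4 of 20 is little more than the background. Of the 20, 12 were higher with CCCP and 8 lower, with a median log2 fold change of 0.20. That median was 0.12 without untreated replicate 1, 0.115 without CCCP replicate 1 and 0.11 without CCCP replicate 2. The groups did not overlap for 10, a share close to the 48.8% of all genes, of which 7 were higher (24.0% of all genes) and 3 lower (24.8%). Elob, an elongin that joins VHL to its cullin, had 77.5 and 90.7 CPM untreated and 118 and 120.4 CPM with CCCP (log2 fold change 0.50, edgeR adjusted p-value 0.218). Its mRNA has only 508 exon bases and shares 2 of them with Srrm2 on the other strand. Rbx1, the ring subunit of the same ligase, had a log2 fold change of 0.30, while the other subunits Eloc and Cul2 stood at -0.12 and -0.05 with overlapping groups. Siah2, a ubiquitin ligase for prolyl hydroxylases, had 14.7 and 17.7 CPM untreated and 20.9 and 24.0 CPM with CCCP (log2 fold change 0.47, edgeR adjusted p-value 0.317). Both HIF coactivators had lower values with CCCP. Ep300 had 221 and 202 CPM untreated and 158 and 171 CPM with CCCP (log2 fold change -0.36, edgeR adjusted p-value 0.278). Crebbp had a log2 fold change of -0.37 (edgeR adjusted p-value 0.371). Their exons are long, at 8784 and 10804 bases. With the length trend removed Ep300 stood at -0.14, Crebbp at -0.08 and Elob at 0.275, and with the GC trend removed Elob stood at 0.32. Crebbp was -0.125 without untreated replicate 1.

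Among the glycolytic targets of HIF, no direction held under all settings. Of 18, 6 were higher and 12 lower, the median was -0.09, and the groups did not overlap for 4 (22.2%), all lower, which is no more than the 24.8% of all genes on that side. By edgeR 0 of the 18 passed the adjustment and 3 had an unadjusted p under 0.05, all lower (9.16% of all genes). DESeq2 called 1 of the 18 (3.32% of the genes to which it gave an adjusted p). Pfkp, a phosphofructokinase, had 109 and 118 CPM untreated and 59.6 and 53.6 CPM with CCCP, and was the gene that DESeq2 called. Its edgeR adjusted p-value was 0.144, and it shares 285 exon bases with Pitrm1 on the other strand. Pdk1, a kinase that keeps pyruvate out of the mitochondrion and a direct HIF target, had 97.1 and 106.5 CPM untreated and 77.1 and 73.5 CPM with CCCP (log2 fold change -0.43, edgeR adjusted p-value 0.230). Pgk1 and Ldha, classical targets, had overlapping groups, at -0.13 and -0.22. The genes with the smallest p among those higher were Gapdh, at 0.23, and Pfkfb4, at 0.15, both with overlapping groups. Pfkfb4 ran from 0.08 to 0.26 with each library left out, and was 0.45 with the length trend removed and 0.01 with the GC trend removed. Gapdh ran from -0.07 to 0.64 with each library left out. Gapdh stood at only 9.59 to 15.5 CPM and has many processed pseudogenes, so its level is uncertain under this counting. The median of the list was 0.16 without untreated replicate 2, with 13 higher, and -0.25 without untreated replicate 1, with 16 lower. With the GC trend removed it was -0.19, also with 16 lower.

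Targets of HIF outside glycolysis were mostly lower with CCCP. Of 23, 22 were tested, since Epo stayed close to the floor, at 0 to 0.267 CPM. Of the 22, 20 had a lower and 2 a higher value, with a median log2 fold change of -0.41 beside -0.008 for all genes. The groups did not overlap for 13 on the lower side (24.8% of all genes) and 1 on the higher side (24.0%). By edgeR 0 passed the adjustment, 10 had an unadjusted p under 0.05, all lower (9.16% of all genes), and DESeq2 called 4 (3.32% of the genes to which it gave an adjusted p). The list was chosen with earlier results of these data known, and no test of the list is given. Vegfa, the vascular growth factor, had 256 and 245 CPM untreated and 149 and 131 CPM with CCCP (log2 fold change -0.83, edgeR adjusted p-value 0.144). Plod2, a collagen lysyl hydroxylase, had 135 and 124 CPM untreated and 89.2 and 85.8 CPM with CCCP (log2 fold change -0.57, edgeR adjusted p-value 0.175), and shares 2933 exon bases with B430319G15Rik on the other strand. Edn1, the precursor of endothelin, was among those with a higher value. It had 1.40 and 2.65 CPM untreated and 2.91 and 3.42 CPM with CCCP, and its log2 fold change of 0.65 ran from 0.26 to 1.21 with each library left out. With each library left out in turn the median of the list ran from -0.45 to -0.27 (17 to 19 of 22 lower). It was -0.40 with the length trend removed and -0.30 with the GC trend removed. Of the 9 genes, the HIF targets Egln3 (-0.32), Egln1 (-0.17) and Hif3a (-0.23, with overlapping groups) also had lower values. Egln1 was -0.03 without CCCP replicate 2, and Hif3a was 0.205 without untreated replicate 1. The glycolytic targets held no direction under all settings. HIF activity was not measured, and its part in these values was not tested.

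**Figure D5:**
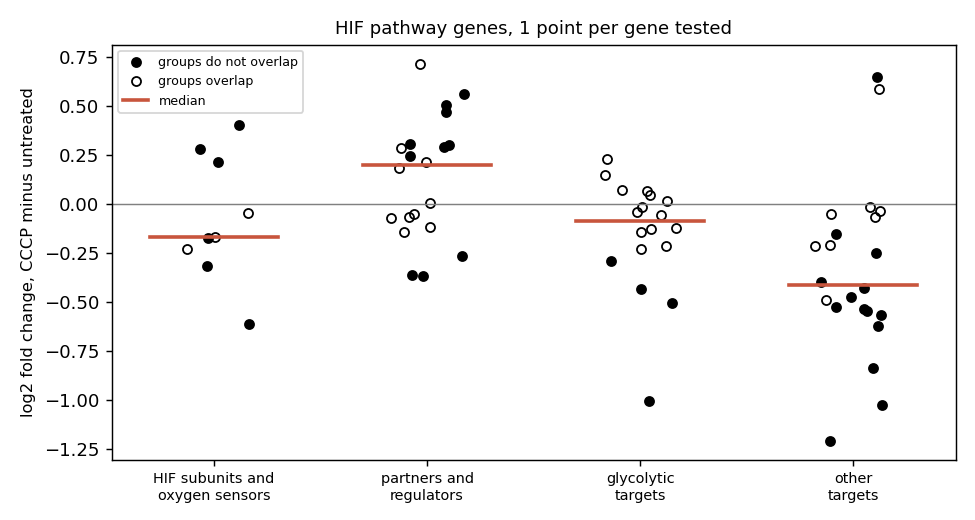
Log2 fold change of each gene tested (1 point per gene) for the 9 HIF subunits and oxygen sensors, the 20 partners and regulators, the 18 glycolytic targets and the 22 other targets. Filled points mark genes whose groups do not overlap, and red lines give the medians of -0.17, 0.20, -0.09 and -0.41.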

How the data were processed

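The authors counted reads per gene with featureCounts 2.0.3 and the mm10 RefSeq annotation, per the file headers, and the raw counts were used as deposited. The recorded command sums exons per gene and sets no option for strand, for read pairs as fragments, or for multi-mapping reads. The library kit keeps strand, per the labels' protocols, but the counting did not use it, so reads of overlapping genes on opposite strands cannot be told apart. HISAT2 and SAMtools are named in the submitters' processing notes, with no version. Exon lengths are those in the deposited files.

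Sample titles gave the groups. Genes were kept by filterByExpr (at least 10 counts, total 15), scaled by TMM and tested two-sided in edgeR 4.0.16 (glmQLFit, glmQLFTest; R 4.3.3) on group alone, at an adjusted p-value under 0.05. CPM carries TMM scaling and serves comparisons between groups. TPM has no such scaling and serves comparisons between genes of a library. Standard errors are the log2 fold change over the root of F. limma was version 3.58.1 and DESeq2 version 1.42.0. A count of 3 corresponds to 0.0614 to 0.0803 CPM and covers counting error only. GC content came from the longest GENCODE transcript (90.4% of genes tested). Named genes were the 9 genes, the 2 smallest p in each direction of 3 HIF lists, the 3 genes most like the gene with the smallest p, Kit and Ptprc, except 1 gene that is not reported here. Rbx1, Eloc, Cul2, Pgk1, Ldha and Epo were named after their values were seen. So were Col1a2 and the other cell type markers, except Kit and Ptprc. The genes and lists were chosen with earlier results of these data known.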

Additional observations from a re-analysis of the deposited data

How the results depend on the processing

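The 9 genes were refitted under 17 alternatives, 3 of them (both fits with the GC trend removed, and DESeq2 with the replicate block) chosen after seeing the data. Egln1, Egln2, Egln3, Epas1, Hif1an and Vhl had 1 direction in all 17. These are the 6 genes whose groups did not overlap (48.8% of all genes tested), so leaving out a library could hardly change their direction. The share of all genes with 1 direction in all 17 was not counted. Hif1a stood at 0.093 with the GC trend removed and at 0.090 with the replicate block as well. Arnt stood at 0.006 with the length trend removed, with or without the replicate block, and ran from -0.066 to 0.020 with each library left out. In the same way Hif3a ran from -0.52 to 0.20 and Gapdh from -0.067 to 0.644.

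In 7 of the 17 alternatives no gene passed the adjusted threshold, and edgeR as reported had 2899 at an unadjusted p under 0.05. The count was 1107 without a filter on low counts (217 higher, 890 lower), 594 in DESeq2 (59 higher, 535 lower) and between 10 and 46 with a library left out. Without the filter edgeR called 3.43% of all genes. Among them were 1 of the 9 genes (Epas1, adjusted p 0.0227), 2 partners, 2 glycolytic targets and 6 other targets. DESeq2 called 1 glycolytic and 4 other targets (3.32% of the genes to which it gave an adjusted p). The cause was not tested.

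Same-numbered libraries deviated together (correlation 0.36 over 19837 genes), but the labels do not state a meaning for the numbers, so they were not taken as a pairing. The replicate block gave 2118 genes (754 higher, 1364 lower; 10.7%), with 2 of the 9 called (Epas1, adjusted p 0.0172, and Egln2, 0.0310), 2 partners, 3 glycolytic and 10 other targets. Over all alternatives the adjusted p of Epas1 lay between 0.0172 and 0.888 and that of Egln2 between 0.0310 and 0.832. With the replicate block and no length trend the count was 1242 genes (6.26%, with 557 higher and 685 lower). These held 0 of the 9, 1 partner, 1 glycolytic and 10 other targets. The replicate block with the GC trend removed gave 775 (3.91%, with 233 higher and 542 lower). Among these were 1 of the 9 (Epas1), 2 partners, 2 glycolytic and 4 other targets. DESeq2 with the replicate block gave 1367 (472 higher, 895 lower), or 9.21% of the genes to which it gave an adjusted p. Among these were Epas1 and Egln2 (2 of the 9), 2 partners, 3 glycolytic and 7 other targets.

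As shares of raw counts without length, Hif1a held 55.5% of alpha subunit RNA untreated (62.4% by TPM) and Hif3a 31.9% with CCCP (24.4%). Egln1 held 54.3% untreated and 47.8% with CCCP, Egln2 30.6% and 40.2%, and Egln3 15.1% and 12%, against TPM means of 45.2% and 38.5%, 38.4% and 48.8%, and 16.5% and 12.7%. Epo, with 0 to 10 counts per library, could not be compared at this depth.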
